A study of Mus musculus with 2 samples.

Results

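The genes of the fibroblast growth factor (FGF) system were followed on promoter arrays that mapped the Polycomb protein Ring1B in mouse embryonic stem (ES) cells. The set was chosen by name alone and held the genes named Fgf, Fgfr, Spry or Spred plus a number, and Fgfrl1. Names joined by a hyphen for a shared divergent promoter were split, and at least 3 probes were required. This gave 32 of the 16908 genes measured, with 1223 probes in all. They were 21 ligand genes, 5 receptor genes and 6 Sprouty and Spred genes, with 16 on each array. The ligand genes were taken by name and include the 4 intracellular FGFs, Fgf11 to Fgf14. No gene of the set was lost to the probe minimum. Fgf6 and Spry3 were not analysed here.

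Chromatin of mouse ES cells was fixed with formaldehyde, sonicated and immunoprecipitated with a monoclonal Ring1B antibody. The recovered DNA (IP, labelled with Cy5) was hybridised together with input DNA of the same cells (labelled with Cy3), after amplification by linker-mediated PCR. The labels name no genotype, cell line or treatment. The sample titles give ES cells, and these were followed although the source names start with Muscle. DNA carries no expression markers, so the identity of the cells was not checked. The 2 arrays were slides of a single promoter set, designs 014716 and 014717, with 0 probes in common. Each promoter was therefore measured once, with no dye swap, no mock immunoprecipitation, no replicate and no p-value. The arrays held 237054 and 237168 usable probes. Input signal stood well above background at 74.1% and 76.3% of them. With a single array per promoter, no value has an error from repeats.

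Apart from the intracellular group, FGF ligands are secreted proteins. They bind receptor tyrosine kinases at the cell surface together with heparan sulfate, and the receptors signal through the Ras and MAP kinase cascade. Sprouty and Spred proteins are feedback inhibitors of that cascade. ES cells make Fgf4, which is bound by Oct4 and Sox2 at an enhancer near the end of the gene and drives cells towards lineage commitment, whereas most other ligands are known from later stages of the embryo. Ring1B is the ubiquitin ligase of Polycomb repressive complex PRC1, which occupies promoters of developmental regulators, mostly at stretches rich in the dinucleotide CG.

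All values below are log2 ratios of IP over input DNA, and 0 is the median probe of the array. A ratio of 1 is 2-fold above that probe. The value of a gene is the mean over its probes, and the SD is over those probes. Neighbouring probes report on overlapping fragments and are not replicates, so the SD describes the spread along a promoter and is no error of a repeat measurement.

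One part of the comparison of Fgf4 with the other genes was at CG-rich stretches near the start of the gene. A probe from each of 10 genes is shown for this, with CG in capitals. The sequences are those printed in the array files, and the coordinates are theirs, whose genome build is not stated there or in the labels. The strand is that of the array design. The Fgf4 probe at chr7:141286821-141286865 lies 214 bp inside the gene and holds 7 CG. Its ratio was 0.46.
Fgf4 probe: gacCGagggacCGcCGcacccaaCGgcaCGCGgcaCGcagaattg
Fgf3 probe: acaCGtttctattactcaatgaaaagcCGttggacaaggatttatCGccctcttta
Fgf15 probe: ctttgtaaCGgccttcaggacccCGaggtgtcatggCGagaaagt
Fgf5 probe: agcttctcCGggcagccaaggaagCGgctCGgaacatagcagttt
Fgf8 probe: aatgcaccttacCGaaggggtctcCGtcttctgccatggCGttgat
Fgf9 probe: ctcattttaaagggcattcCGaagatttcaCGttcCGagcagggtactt
Fgf16 probe: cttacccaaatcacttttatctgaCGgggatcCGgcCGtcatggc
Fgf12 probe: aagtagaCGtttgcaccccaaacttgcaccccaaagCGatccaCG
Fgfr2 probe: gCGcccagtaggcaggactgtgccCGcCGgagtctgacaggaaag
Fgfr3 probe: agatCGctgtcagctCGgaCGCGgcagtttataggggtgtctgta
The neighbours of Fgf4 on chromosome 7 gave 4.21 at chr7:141264370-141264425 (Fgf3) and 2.88 at chr7:141321891-141321935 (Fgf15). The Fgf5 probe at chr5:97469480-97469524 had a ratio of 3.15. The Fgf8 probe at chr19:45638390-45638435 stood at 2.99 and the Fgf9 probe at chr14:52942043-52942091 at 3.15. The highest was the Fgf16 probe at chrX:101092619-101092663, at 4.80, and the lowest besides Fgf4 was the Fgf12 probe at chr16:28105480-28105524, at 1.83. The receptor probes gave 2.84 for Fgfr2 at chr7:126430770-126430814 and 3.54 for Fgfr3 at chr5:32785604-32785648. The genes shown beside Fgf4 were picked for high ratios, over a long region, inside the gene or near the start. That Fgf4 is lowest among them was therefore fixed by the choice. Each probe is the highest of its gene with at least 3 CG, and other probes of most of these genes were higher still, so it gives neither the peak nor the level of a gene. The Fgf4 probe held the most CG of the 10.

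Over the whole set, 2 of the 32 genes (6.25%) had a mean of at least 1, against 1.99% of all genes, and 0 had a mean of -1 or less, against 1.87% of all genes. Over all genes these counts were 337 and 316. The balance of the 2 directions shifted with the scaling. It was 505 and 127 without centring, 446 and 62 after normexp background correction, and 432 and 52 in the deposited series table. The median over the FGF genes was 0.04 and that over all genes was -0.10. By role, the median was 0.24 for the ligands, 0.02 for the receptor genes and -0.13 for the Sprouty and Spred genes. A count of 2 among 32 genes is small, and no test was made. At a threshold of 0.5, 7 of the 32 genes passed, against 7.62% of all genes, and at 1.5 only Fgf9 did, against 0.651% of all genes.

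**Figure D1:**
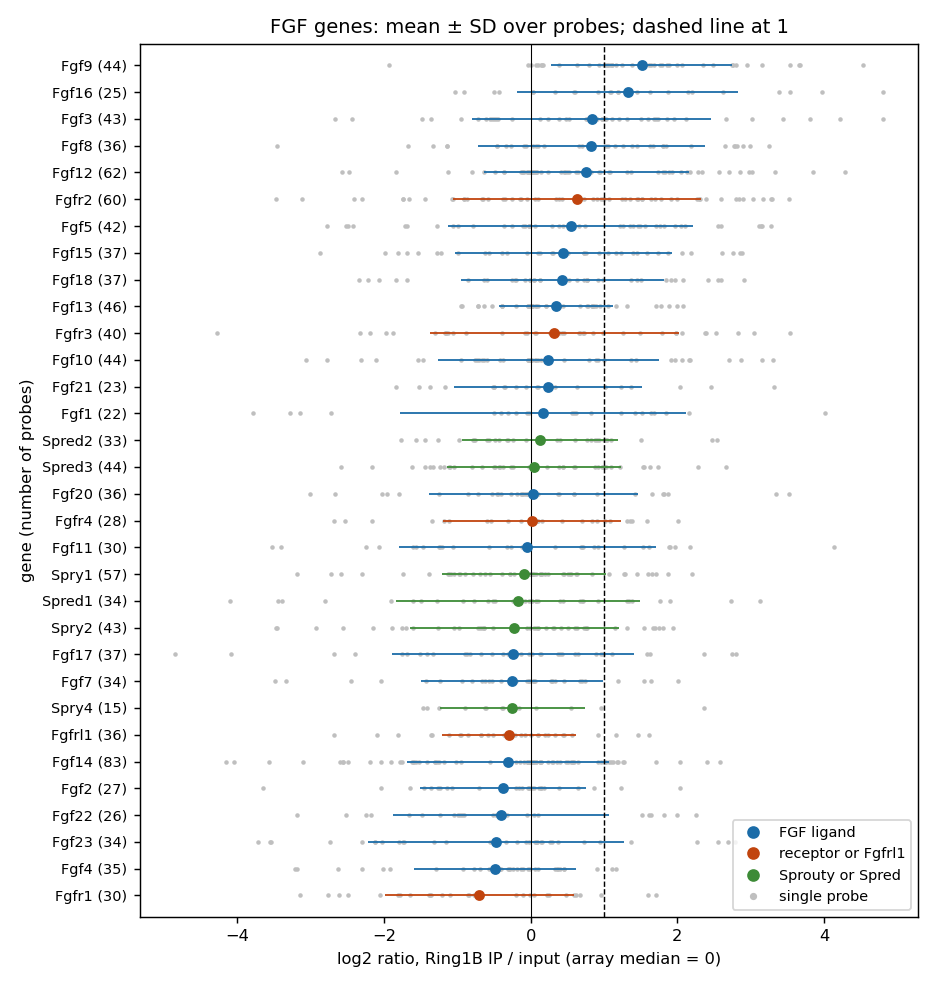
Log2 ratio of IP over input (horizontal axis, 0 is the array's median probe) for each of the 32 FGF genes, ordered by mean. Small grey points are single probes, large points are gene means, bars are the SD over probes, and the number of probes stands beside each name. Fgf9 and Fgf16 lie right of the dashed line at 1, and Fgf4 is the lowest ligand, above only Fgfr1.

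The plot of gene means shows that the probes of each gene spread widely, and that the bars of neighbours in the order overlap. Only Fgf9 and Fgf16 had means past 1, both measured on array 2. Both encode secreted ligands of the FGF9 subfamily. Fgf9 acts in the gonad, lung and skeleton and Fgf16 in the heart. Fgf9 was measured by 44 probes, from -1.93 to 4.53 with a median of 1.45, and 32 of them were at or above 1. Its mean was 1.52 ± 1.23 (SD over 44 probes), or 2.86-fold. The 25 probes of Fgf16 ran from -1.04 to 4.80 with a median of 1.19. Its mean was 1.33 ± 1.51 (SD over 25 probes), or 2.51-fold, with 15 probes at or above 1. Fgf20, the other member of that subfamily, had a mean of 0.04 ± 1.43 (SD over 36 probes), and its probes ran from -3.00 to 3.53. So the subfamily split, with 2 genes at the top of the set and the third near the median probe.

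Below Fgf9 and Fgf16 came Fgf3, Fgf8 and Fgf12, between 0.76 and 0.83. Fgf3, a ligand of the inner ear and tail, had a mean of 0.83 ± 1.62 (SD over 43 probes), with a median probe of 0.91. Fgf8, a signal of the primitive streak, the limb bud and the midbrain border, had a mean of 0.83 ± 1.55 (SD over 36 probes). Its median probe stood at 1.05, with 19 of 36 probes at or above 1. These 2 genes passed 1 under some other ways of processing. With normexp, with loess and in the deposited series table, 4 of the 32 genes did, namely Fgf3, Fgf8, Fgf9 and Fgf16. The share of all genes at or above 1 was also higher there, at 2.64%, 2.32% and 2.56%.

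Fgf12 is an intracellular FGF that binds sodium channels and is not secreted. Its probes lay in 2 distant stretches of chromosome 16, and its mean of 0.76 joined unlike values. The stretch at chr16:28102873-28110592 had a mean of 1.29 ± 1.32 (SD over 37 probes). The stretch at chr16:28414006-28422001 had a mean of -0.02 ± 1.13 (SD over 25 probes). Fgf14, of the same intracellular group, was also measured at 2 stretches of chromosome 14, and their means were 0.13 ± 1.29 (SD over 42 probes) and -0.75 ± 1.33 (SD over 41 probes). The means of the other intracellular genes were 0.35 for Fgf13 and -0.04 for Fgf11. Fgf11 was high upstream, at 0.74 over 10 probes, and lower inside, at -0.43 over 20 probes.

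The means of the remaining ligands ran from 0.55 down to -0.49. Fgf5, made in the epiblast once cells leave the naive state, had 0.55 ± 1.67 (SD over 42 probes). Fgf15, an endocrine ligand of the gut that controls bile acid synthesis, had 0.45 ± 1.48 (SD over 37 probes). Fgf18 followed at 0.43, Fgf10 and Fgf21 at 0.24 and Fgf1 at 0.17. Fgf10 is the limb and lung bud ligand, and Fgf21 is an endocrine ligand of the liver. Below 0 lay Fgf17 at -0.24, Fgf7 at -0.25, Fgf2 at -0.38, Fgf22 at -0.40 and Fgf23, the phosphate hormone of bone, at -0.47. Fgf1 and Fgf2 had no probe inside the gene, so their means rest on upstream probes alone.

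Fgf4 had the lowest mean of the 21 ligands. Its 35 probes ran from -3.22 to 1.16 with a median of -0.27. Only 2 of them were at or above 1, and 7 were at or below -1. The mean was -0.49 ± 1.10 (SD over 35 probes), or 0.71-fold, and Fgf4 stood at place 14163 of 16908 genes. The difference from Fgf9 was 2.00 on the log2 scale, with probe SDs of 1.10 and 1.23. It crosses arrays, since Fgf4 was measured on array 1 and Fgf9 on array 2, and these were centred separately. The ligands nearest to Fgf4 were Fgf23, Fgf22 and Fgf2, which were higher by 0.01, 0.08 and 0.11 in gene mean. Those differences are far below the probe SDs of the 4 genes, so their order carries no weight. Fgf4 was the lowest ligand in the main setting, without centring and with at least 20 probes per gene. Its place was 17 of 21 with normexp, with loess and in the series table, and 15 of 19 within 1000 bp of the start. Its mean stayed below 0 in all 11 settings that give one, from -0.58 to -0.11.

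The low mean of Fgf4 came from upstream of the start. Its 18 upstream probes had a mean of -1.12 ± 1.13 (SD), and the 17 probes inside the gene had a mean of 0.18 ± 0.56 (SD). The upstream probes held 0.68 CG per 100 bases and the inside probes 3.63. Fgf4 was the 1 gene among 31 with at least 3 upstream probes whose upstream mean was -1 or less, against 3.76% of all genes. A run of 6 probes at chr7:141285140-141286166, at -1467 to -488 bp from the start, averaged -1.68. Inside the gene, no running mean of the ratio reached 1. Taking the ratio inside the gene alone, Fgf4 stood near the median probe rather than below it.

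Its neighbours on chromosome 7 differed. Fgf3 lies 15.7 kb from Fgf4 on the array map and Fgf15 27.5 kb, and all 3 were measured on array 1. Fgf3 had 0.26 ± 1.31 (SD) over 29 upstream probes and 2.02 ± 1.61 (SD) over 14 probes inside the gene. Fgf15 had -0.21 ± 1.30 (SD) over 22 upstream probes and 1.41 ± 1.18 (SD) over 15 inside. Inside the gene, Fgf4 was thus lower than Fgf3 by more than the SD of either, and lower than Fgf15 by about the SD of Fgf15. The only other ligand on that chromosome, Fgf21, lies far away and had a mean of 0.24 ± 1.28 (SD over 23 probes).

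**Figure D2:**
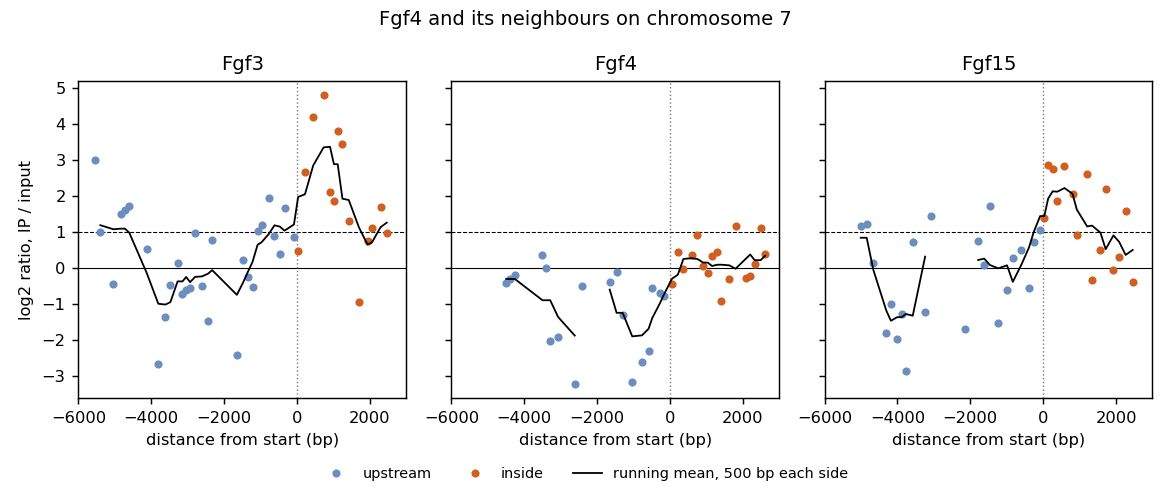
Log2 ratio of single probes against distance from the transcription start in bp for Fgf3, Fgf4 and Fgf15, upstream probes in blue and probes inside the gene in orange, with the running mean over 500 bp to each side as a line and a dashed line at 1. The line climbs past 1 inside Fgf3 and Fgf15, and inside Fgf4 it stays near 0.

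The plot of Fgf4 with its neighbours places the high ratios of Fgf3 and Fgf15 around and after the start, in runs from -617 to 1701 bp and from -259 to 1341 bp. Near the start (probes within 1000 bp on either side), the mean was 1.93 ± 1.46 (SD over 11 probes) for Fgf3, 1.24 ± 1.20 (SD over 13 probes) for Fgf15 and -0.51 ± 1.10 (SD over 11 probes) for Fgf4. The content of CG in those probes was 5.25, 3.43 and 5.16 per 100 bases. Averaged over that window, Fgf4 was as rich in CG as Fgf3, at a ratio lower by more than 2 on the log2 scale. The window of Fgf4 joined unlike stretches, however. Its 2 probes from -1000 to -500 bp had a mean of -2.46 at 0 CG per 100 bases. The 3 probes from 0 to 500 bp had a mean of -0.002 at 10.4, and the 3 from 500 to 1000 bp had 0.45 at 6.67. So the low window mean of Fgf4 is not the ratio of its CG-rich part.

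Single probes can be split by the CG they hold. The 18 probes of Fgf4 without CG had a mean of -0.94, against -0.17 for all gene probes without CG. Its 12 probes with 1 to 2 CG had a mean of -0.05. The 5 probes of Fgf4 with at least 3 CG had a mean of 0.09, and the highest was 0.46. The 5 such probes of Fgf3 had a mean of 1.90 and the 4 of Fgf15 a mean of 2.25. Over the 6 genes with a long region (below), 34 such probes had a mean of 1.74, and 76.5% of them were at or above 1. Of the 6, Fgf12 alone was lower at such probes, with a mean of 0.15 over 5, than at its 29 probes without CG, at 0.96. The Fgf12 probes come from its 2 distant stretches, with means of 1.29 and -0.02, which were not separated here. The 6 genes were picked for their ratio. Over the other 26 genes of the set, Fgf4 among them, 73 such probes had a mean of 0.44, and 27.4% were at or above 1. Over all gene probes, the mean of those with at least 3 CG was 0.32, and 24.9% were at or above 1. For probes without CG the share was 16.9%.

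The promoter sequences of 4 genes are set beside their ratios. They are from RefSeq on build GRCm38.p6, from 250 bases before the start to 50 after it, all on the plus strand and with CG in capitals. Fgf9 is shown as the highest ligand, Fgf4 as the ligand active in ES cells, and Spred2 as the highest gene of the Sprouty and Spred group. Fgf5 was added after its values were seen, for its CG content close to that of Fgf4. RefSeq promoters were found for 24 of the 32 genes, and Fgf16 was not among them. Fgf4 lies at chr7:144861136-144861435, Fgf5 at chr5:98253934-98254233, Fgf9 at chr14:58072436-58072735 and Spred2 at chr11:19924192-19924491.
Fgf4 promoter: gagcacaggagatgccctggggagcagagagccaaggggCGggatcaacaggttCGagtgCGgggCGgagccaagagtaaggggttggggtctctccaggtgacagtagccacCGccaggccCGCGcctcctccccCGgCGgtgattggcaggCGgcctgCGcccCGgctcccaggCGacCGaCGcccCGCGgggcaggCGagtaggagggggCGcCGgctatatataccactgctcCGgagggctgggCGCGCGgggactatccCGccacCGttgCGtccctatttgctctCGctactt
Fgf5 promoter: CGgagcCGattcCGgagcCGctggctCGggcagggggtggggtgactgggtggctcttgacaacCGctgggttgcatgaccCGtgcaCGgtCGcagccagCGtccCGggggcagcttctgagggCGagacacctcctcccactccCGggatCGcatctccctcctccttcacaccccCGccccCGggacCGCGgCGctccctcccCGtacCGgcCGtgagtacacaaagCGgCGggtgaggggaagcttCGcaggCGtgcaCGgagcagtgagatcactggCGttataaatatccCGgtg
Fgf9 promoter: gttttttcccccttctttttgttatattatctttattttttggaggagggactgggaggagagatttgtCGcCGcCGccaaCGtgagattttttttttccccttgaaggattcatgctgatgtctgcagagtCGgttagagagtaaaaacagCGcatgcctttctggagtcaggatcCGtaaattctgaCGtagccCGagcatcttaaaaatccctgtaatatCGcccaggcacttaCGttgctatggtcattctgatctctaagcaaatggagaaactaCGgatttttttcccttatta
Spred2 promoter: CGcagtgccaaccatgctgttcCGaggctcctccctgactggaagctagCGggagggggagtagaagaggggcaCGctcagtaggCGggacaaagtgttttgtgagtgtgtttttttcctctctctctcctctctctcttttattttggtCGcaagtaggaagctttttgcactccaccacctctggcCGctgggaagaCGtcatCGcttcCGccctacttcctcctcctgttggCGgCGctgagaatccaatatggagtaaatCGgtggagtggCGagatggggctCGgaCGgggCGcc
The Fgf4 promoter holds 28 CG, and 14.2% of the 32851 promoters of the table hold as many or more. Fgf5 holds 29, and 12.9% hold as many or more. The median promoter holds 7. An array probe that lies whole inside the Fgf4 window, found by its sequence, had a ratio of -0.77, and one inside the Fgf5 window had a ratio of 2.59. The Fgf4 probe itself holds 0 CG and the Fgf5 probe 2. So the 2 windows of nearly equal CG count were compared by a single probe each, and that of Fgf4 covers none of its 28 CG. Other genes of the set also had at least 28 CG and a probe in the window. Over 2 probes each, Spry2 (28 CG) had a mean of 0.86 and Spry1 (29 CG) one of 1.11. A promoter of Fgfr3 (30 CG) had 1.86, Fgf13 (37 CG) 0.54 and Fgfrl1 (37 CG) 0.11, also over 2 probes each. Fgf18 (47 CG) had 0.52 and Spred1 (40 CG) -0.93, over 1 probe each. Fgf9 holds 12 CG, with 39.6% of promoters holding as many or more, and no probe lies whole in its window. Spred2 holds 17, with 31.4% of promoters holding as many or more, and its 2 probes there had a mean of 0.88. CG reads the same on both strands, and the count is a description of the letters in this window. Across the 32 genes, the correlation of the gene mean with CG per 100 bases of probe sequence was 0.37 (Pearson) and 0.33 (Spearman), and across all 16908 genes it was 0.23 and 0.19. These genes share arrays and base composition, so the coefficients are given as a description.

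Across the set, high ratios lay inside the genes more than upstream of them. Among the 30 genes with probes inside the gene, 7 had an inside mean of at least 1, against 5.47% of all genes. They were Fgf9 at 2.19, Fgf3 at 2.02, Fgf8 at 1.85, Fgfr3 at 1.62, Fgf16 at 1.57, Fgf15 at 1.41 and Fgf5 at 1.34. None was at -1 or less, against 6.57% of all genes. Upstream, 2 of 31 genes with at least 3 probes there reached 1, against 2.46% of all genes, and these were Fgf9 at 1.20 and Fgf16 at 1.10. The inside mean was above the upstream mean in 21 of 29 genes with at least 3 probes in each part, and in 15 of 19 ligands. Over all genes that share was 53.7%, and over genes with a mean of at least 1 it was 77.7%.

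**Figure D3:**
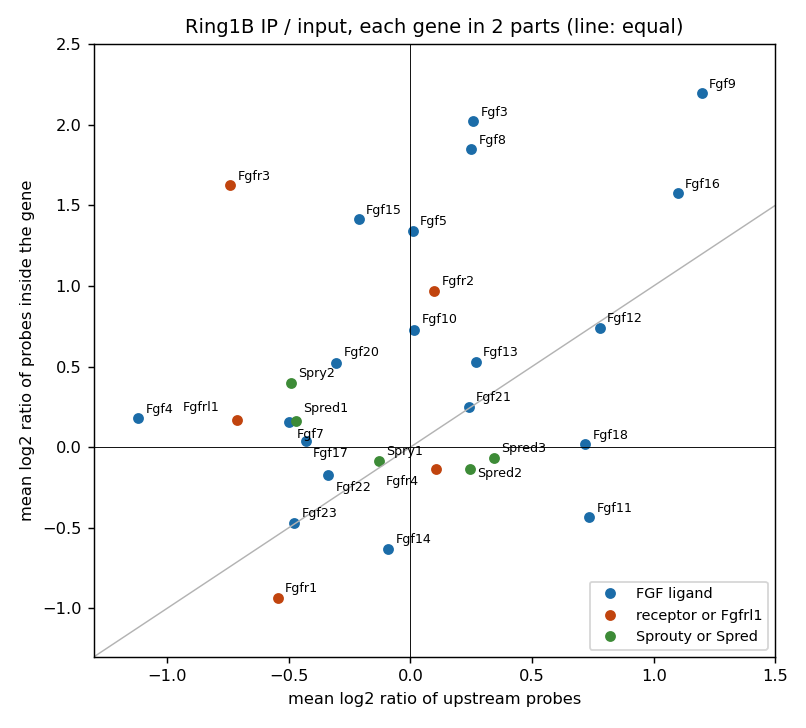
Mean log2 ratio of the probes inside the gene (vertical axis) against that of the upstream probes (horizontal axis). The 29 FGF genes with at least 3 probes in each part are shown, coloured by role, and the grey line marks equal values. Fgf9 and Fgf16 are high on both axes, while Fgf3, Fgf8, Fgf15, Fgf5 and Fgfr3 are at or above 1 inside the gene alone.

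The plot of inside against upstream means sets 5 genes apart from Fgf9 and Fgf16, with a high inside mean and an upstream mean between -0.74 and 0.26. These 7 genes, and Fgfr2 besides, came up when probes within 1000 bp of the start were averaged. Then 8 of 30 genes reached 1, against 8.07% of all genes, and 1 was at -1 or less, against 6.54% of all genes. The 8 were Fgfr2 at 2.21, Fgf3 at 1.93, Fgf16 at 1.90, Fgf5 at 1.80, Fgf8 at 1.65, Fgf9 at 1.52, Fgf15 at 1.24 and Fgfr3 at 1.16. The low gene was Fgf2, which maintains human pluripotent cells in culture and acts as a mitogen, at -1.58 over 5 probes. How many FGF genes counted as high thus turned on the stretch averaged, 2 over the whole promoter and 8 near the start.

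Long stretches of high ratio gave a further measure. A long region was a run of at least 3 probes, without gaps of 1000 bp, whose running mean over 500 bp to either side was at least 1 over at least 2000 bp. Such a region was found at 6 of the 32 genes, against 3.04% of all genes, and its mirror image, at -1 or less, at 0 of 32, against 0.988% of all genes. These shares are not matched for the number of probes per gene or the length tiled. The 6 genes were Fgf9, Fgf16, Fgf12, Fgf3, Fgfr2 and Fgfr3. Fgf9 had the longest of the 6, 5123 bp at chr14:52938195-52943317, with 30 probes and a mean of 2.01. It began at -2669 bp from the start and ran to the last probe of the stretch tiled. The region of Fgf16 at chrX:101090180-101093273 measured 3094 bp, with a mean of 1.81 over 19 probes. Fgf12 had 3095 bp at chr16:28102873-28105967, with a mean of 1.78, in the first of its stretches. Fgf3 had 2365 bp at chr7:141263312-141265676, from -617 to 1701 bp from the start, with a mean of 1.97. When the running mean had to reach 1.5, 2 of the 32 genes had a long region.

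**Figure D4:**
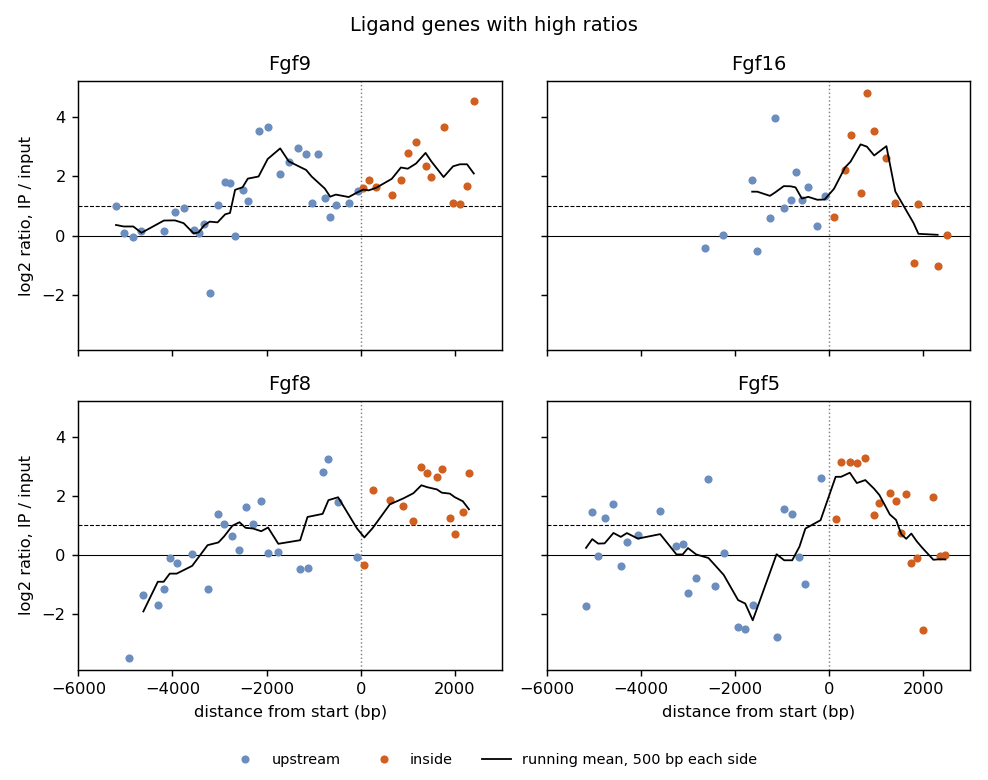
Log2 ratio of single probes against distance from the transcription start in bp for Fgf9, Fgf16, Fgf8 and Fgf5, drawn as for Fgf4, with upstream probes in blue, probes inside the gene in orange, the running mean as a line and a dashed line at 1. Fgf9 is above 1 from far upstream of the start to the last probe, while Fgf5 passes 1 next to the start and inside the gene.

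Fgf8 and Fgf5 had shorter runs, as the plot of the high ligands shows. Fgf8 had 1735 bp at chr19:45637372-45639106 with a mean of 2.02 over 11 probes, which reached the last probe on the gene side. A second run of 698 bp upstream had a mean of 1.85. Fgf5 had 1658 bp at chr5:97468858-97470515, with a mean of 2.35 over 10 probes. Fgf15 had 1659 bp at chr7:141321487-141323145, with a mean of 1.71 over 11 probes. Over the 6 genes with a long region, the mean ratio was 1.05 in the 500 bp before the start (17 probes) and 1.80 in the 500 bp after it (21 probes). It was 2.37 from 500 to 1000 bp inside the gene (18 probes) and 1.87 from 1000 to 1500 bp (22 probes). In the other genes measured, outside the set, the mean was 0.05 just before the start and 0.06 from 500 to 1000 bp inside. The regions were picked for their ratio, so these levels are a description.

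Shorter runs of at least 3 probes lay at many genes in both directions. Runs at or above 1 were found at 18 of the 32 genes, against 29.4% of all genes, and runs at or below -1 at 18 of 32, against 47% of all genes. Here too the shares are not matched for the number of probes. Both kinds lay at 8 genes, and Fgf13, Fgfr4, Spry1 and Spry4 had neither. Among the low runs, the longest was at Fgf14, an intracellular FGF of neurons, with 1920 bp at chr14:119121814-119123733 and a mean of -1.97 over 13 probes across the start of its second stretch. Fgf20 had a low run of 855 bp upstream, at -2.10, and a high run of 583 bp inside the gene, at 1.69. Fgf5 likewise had a low run of 367 bp upstream, at -2.20, before its high run. A short low run was thus common, and that of Fgf4, at 1027 bp, was shorter than those of Fgf14 and Fgfr2.

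The receptor genes fell on either side of 0. Fgfr1 to Fgfr4 encode the tyrosine kinases, and Fgfrl1 encodes a receptor-like protein without a kinase domain. Of the 5 genes, 0 had a mean of at least 1, against 1.99% of all genes, and 2 had a long region, against 3.04%. Fgfr2, known from limb, lung and skin, had a mean of 0.64 ± 1.69 (SD over 60 probes), from -3.47 to 3.52 with a median of 0.88. Its 2 regions were 2958 bp at chr7:126429279-126432236, with a mean of 2.00, and 2224 bp at chr7:126426759-126428982, with a mean of 1.51. Further inside the gene, 7 probes over 1304 bp averaged -1.66. Fgfr3, a brake on bone growth, had a mean of 0.32 ± 1.69 (SD over 40 probes), from -4.28 to 3.54. It joined an upstream mean of -0.74 ± 1.33 (SD over 22 probes) to an inside mean of 1.62 ± 1.06 (SD over 18 probes). Its region, 2204 bp at chr5:32784653-32786856 with a mean of 2.00 over 12 probes, began 7 bp after the start.

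**Figure D5:**
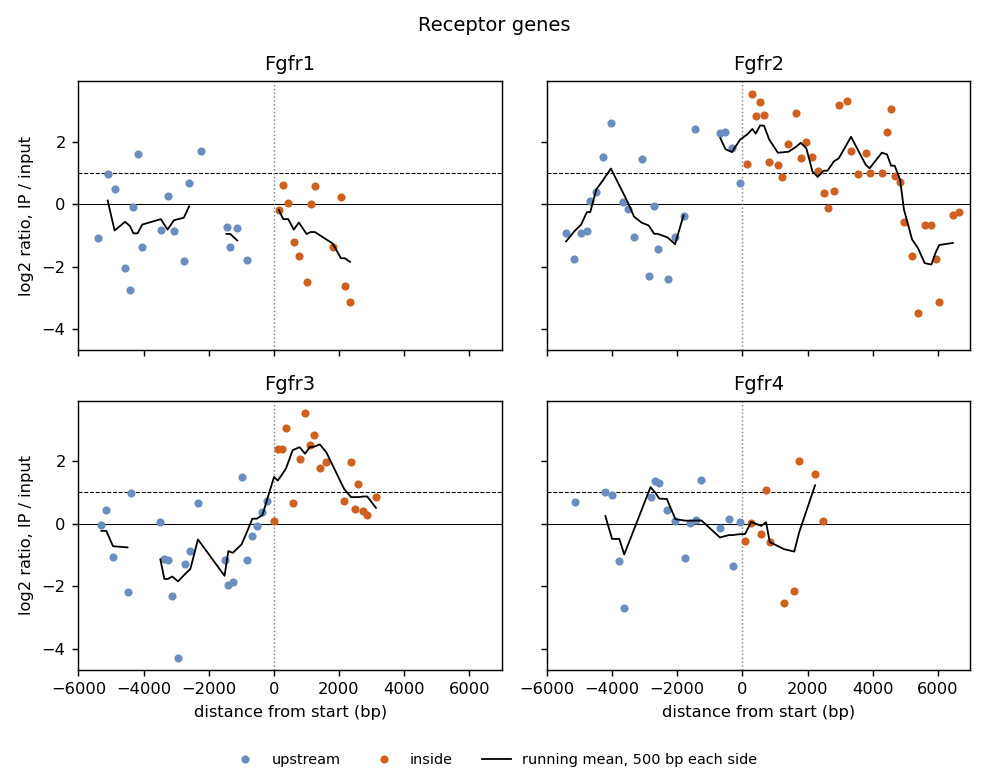
Log2 ratio of single probes against distance from the transcription start in bp for Fgfr1, Fgfr2, Fgfr3 and Fgfr4, drawn as for the ligands, with the running mean as a line and a dashed line at 1. The line lies above 1 inside Fgfr2 and Fgfr3, stays below 0 over most of Fgfr1, and lies near or below 0 at the start of Fgfr4.

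Fgfr1 had the lowest mean of the 32 genes. It encodes the receptor through which FGF4 acts in ES cells. Its 30 probes ran from -3.14 to 1.71 with a median of -0.80, and its mean was -0.70 ± 1.29 (SD over 30 probes), or 0.62-fold. The inside mean was -0.93 and the upstream mean -0.54, so unlike Fgf4 it was low in both parts. The inside parts were unlike in sequence, with 1.23 CG per 100 bases for Fgfr1 and 3.63 for Fgf4. Of the Fgfr1 probes, 0 held 3 or more CG. The plot of receptor genes also shows Fgfr4, a liver and muscle receptor, with no run near the start and a mean of 0.02 ± 1.22 (SD over 28 probes). Fgfrl1 had -0.30 ± 0.92 (SD over 36 probes), with an upstream mean of -0.71 and an inside mean of 0.17. The order Fgfr2, Fgfr3, Fgfr4, Fgfrl1, Fgfr1 was separated at each step by less than the SD over probes.

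The Sprouty and Spred genes, whose proteins hold back Ras and MAP kinase signalling, lay close to 0. None of the 6 had a mean of at least 1 or a long region, and the share of all genes with a mean of at least 1 makes 0 of 6 uninformative. Spred2 was highest at 0.13 ± 1.07 (SD over 33 probes), from -1.76 to 2.54. Spred3 had 0.05 ± 1.19 (SD over 44 probes), Spry1 -0.09 ± 1.11 (SD over 57 probes) and Spred1 -0.17 ± 1.67 (SD over 34 probes). Spry2 had -0.22 ± 1.42 (SD over 43 probes) and Spry4 -0.25 ± 0.99 (SD over 15 probes). The 6 means lay closer together than the SD over probes of any of them. Some had short runs, such as 717 bp upstream of Spred2 with a mean of 1.23, and Spry2 had a run of 457 bp at -2.04. Near the start, Spred2 stood at 0.80, Spred1 at 0.70 and Spry1 at 0.57, while Spry2 stood at -0.21 and Spry4 at -0.62. Spry2 had the richest start of the set, with 7.63 CG per 100 bases of probe, at that ratio.

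The rest of the pathway was taken from a list of 42 genes, of which 39 were measured, 2 of them under an older name. Sos2, Braf and Dusp5 were not analysed here. None of the 39 had a mean of at least 1 (1.99% of all genes), a mean of -1 or less (1.87%) or a long region (3.04%). In a list of this size, counts of 0 at such shares say little. Their median was -0.02. The 3 highest were Dusp4 at 0.91 ± 1.13 (SD over 40 probes), Flrt2 at 0.74 ± 1.39 (SD over 36 probes) and Grb2 at 0.68 ± 0.91 (SD over 24 probes). Dusp4 is a MAP kinase phosphatase, Flrt2 a membrane protein that binds FGF receptors, and Grb2 the adaptor that links receptors to Ras. Among the 3 lowest were Frs2, the docking protein of FGF receptors, at -0.57 ± 1.63 (SD over 23 probes) and the heparan sulfate enzyme gene Hs6st1 at -0.51 ± 1.15 (SD over 32 probes).

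By role, the 2 measured phosphatase genes had a median of 0.66, the 5 ETS and early response factors 0.27, and the 8 Ras and MAP kinase genes 0.00. The 9 adaptors and enzymes had a median of -0.05 and the 7 heparan sulfate genes one of -0.08. The 6 membrane modulators and the 2 FGF-binding proteins both had a median of -0.12. Flrt2 had an inside mean of 1.87 and a run of 1979 bp, just short of the length set for a long region. Near the start, 4 of the 39 genes were at or above 1, close to the 8.07% of all genes. They were Dusp4, Etv4, Flrt2 and Kl, at 1.05, 1.01, 1.26 and 1.23. Kl encodes Klotho, the co-receptor of FGF23. Dusp4 passed 1 over its whole promoter in 5 other settings (GC-corrected ratios, loess, no centring, normexp and the series table), so its place just under the threshold depended on the scaling.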

How the data were processed

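The deposited scanner files, 1 per array, come from Agilent Feature Extraction, version 9.1.3.1 per the file headers. The intensity values used are its processed signals, background-subtracted and dye-normalized per the file headers, and dim spots carry a surrogate (floor) value, in both channels at 18.2% and 15.5% of probes. The deposited series table holds log2 ratios of the mean signals, as checked against the scanner files (largest difference 5.0e-05), and served as an alternative. Coordinates are as in these files, with a build not given in the sources used here. Per the labels' protocols, Cy5 was IP DNA and Cy3 input DNA.

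Control spots and 141 and 17 outlier probes were left out. Each array's log2 ratios of processed signals (Cy5 over Cy3) were centred on their median. Distances from the start were given for array 1. For array 2 the boundary between upstream and inside probes was used, and over 7966 genes of array 1 its median distance from the start in the file was 51.5 bp. No test was possible, and counts past 1 stand beside the share of all genes. The steps were tested on simulated data. Alternatives used limma 3.58.1 (normexp with offset 50, loess) in R 4.3.3, other work pandas 2.3.3 and numpy 2.4.6 in Python 3.11.15, and figures matplotlib 3.10.9.

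All members are named. Full values are given for Fgf4 and its neighbours, genes with a mean of at least 1 or a long region, receptors, Sprouty and Spred genes, and the 3 highest and 3 lowest genes of the pathway list, of which 1 is not reported here. Promoters printed are those of the 2 highest ligands where present, Fgf4 and the highest Sprouty or Spred gene. The members and lists were chosen with earlier results of these data known.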

Additional observations from a re-analysis of the deposited data

How the results depend on the processing

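The means of Fgf9 and Fgf16 were at or above 1 in 11 of 11 settings, from 1.45 to 1.78 and from 1.19 to 1.90. The count of FGF genes at or above 1 was 2 in the main setting. It was 4 with loess, 4 with normexp, 4 in the series table, 8 within 1000 bp of the start, 7 with a threshold of 0.5 and 1 with a threshold of 1.5. Over the ligands, also 2 in the main setting, the counts in that order were 4, 4, 4, 6, 6 and 1. For the receptor genes, 0 in the main setting, they were 2 within 1000 bp of the start and 1 with a threshold of 0.5. For the other pathway genes, 0 in the main setting, the count was 1 with GC-corrected ratios, loess, no centring, normexp or the series table, 4 within 1000 bp of the start and 4 with a threshold of 0.5. The count of genes with a long region, 6 in the main setting, was 2 with a running mean of 1.5. The place of Fgf4, 21 of 21 ligands in the main setting, was 20 with GC-corrected ratios, 17 with loess, 20 with the median of probes, 17 with normexp, 19 with input well above background, 15 of 19 within 1000 bp of the start, 17 in the series table and 20 without probes at surrogate values. The cause was not tested. The other values stayed within the SD over probes or, for counts, within 1.5 times. No mean at or above 1 changed sign, but means near 0 did: Fgfr4, Fgfrl1, Spred1, Spred3, Spry1, Spry2 and Spry4 lay on both sides of 0 over the settings, for example Spred1 from -0.44 to 0.70 and Fgfrl1 from -0.49 to 0.08. The median of all genes was -0.10 in the main setting, 0.10 without centring, 0.01 with normexp, 0.02 in the series table and -0.28 with input well above background, and the values above are not corrected for these shifts. No paired analysis was possible because the 2 arrays share no probe and each gene was measured once. Leaving out an array removes its genes and gives no value. Input signal well above background at 74.1% and 76.3% of probes limits what the remaining probes can show.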
